A study of Homo sapiens with 4 samples.

Results

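The teneurin and latrophilin genes were followed in UM-UC-3 cells, a long-established line grown from a human bladder carcinoma. The set comprised the teneurin genes TENM1, TENM2, TENM3 and TENM4 and the latrophilin genes ADGRL1, ADGRL2 and ADGRL3, 7 of the 19775 genes that probe sets of 1 gene named. It was chosen by the large measured difference of TENM2 between the lines, and the other 6 genes were added as its relatives and binding partners. Differences between the lines are therefore given for these genes as a description, without p-values. Every probe set annotated to exactly 1 of the 7 genes was taken, which gave 16 of the 54613 probe sets that were not controls, 7 for teneurins and 9 for latrophilins.

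One line had been stably transfected with GFP alone and served as the control; the other carried GFP fused to RhoGDI2, the protein encoded by ARHGDIB. Per the labels, the control cells received the empty GFP vector with pBABE PURO for selection, cells were sorted for fluorescence, and RNA was taken in log phase growth. For the GFP-RhoGDI2 samples, 1 free-text label repeats the control transfection, while title, source and genotype name GFP-RhoGDI2. Each line had 2 arrays, from preparations A and B made at different times and paired across the lines. The sources do not say whether these came from separate transfections, so p-values measure the spread between these samples. No source used here says whether either line was 1 clone, so a difference due to RhoGDI2 and one that arose when a line was made cannot be told apart.

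Teneurins are large transmembrane proteins that cross the membrane once and carry epidermal growth factor-like repeats and a very large extracellular C-terminal part. Latrophilins are adhesion G protein-coupled receptors, which are cut next to the membrane and hold both pieces together. Teneurins bind latrophilins on the facing cell, and fibronectin leucine-rich transmembrane (FLRT) proteins can bind the same receptors; these contacts are best known from synapse formation and axon targeting in the nervous system.

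Values are log2 RMA expression per probe set. ARHGDIB, the introduced gene, read by its brightest probe set 6.51 and 6.27 in the GFP line (A, B) against 11.94 and 11.58 in the GFP-RhoGDI2 line. Of its other probe sets, 1 was called higher with a smaller difference of 0.94, and 1 was not called (-0.02). Probe sets were tested when their mean over the 4 arrays reached the median of all probe sets, 4.637. As a guide to the low end of the scale, 11 measured genes restricted to other organs had means from 3.07 to 5.49, with a median of 4.34. Of 10 urothelial markers, 4 passed the filter. KRT8 and KRT18 were called lower, with differences of -1.23 and -0.59, while KRT7 (-0.15) and GATA3 (-0.20) were not called. The uroplakin genes, which mark differentiated urothelium, were all below the filter. Among them UPK1A went the other way without overlap, from 4.18 and 4.03 in GFP to 4.95 and 4.55 in GFP-RhoGDI2 cells (0.65). The median difference over all 10 urothelial markers was -0.16. Of 12 neuronal markers, 5 passed and 2 were called higher, NEFL (difference 4.07) and SNAP25 (0.83). Both NEFL values in GFP cells lay below the filter, so it passed through the GFP-RhoGDI2 line alone. SNAP25 read 4.72 and 5.66 in GFP and 5.50 and 6.54 in GFP-RhoGDI2 cells; its lines overlapped, and the call was lost without the preparation block (adjusted p = 0.279, limma). Of the other 10 neuronal markers, 5 had differences above 0 and 5 below, from -0.20 to 0.25. The median over all 12 was 0.06. Their summed log2 level was 56.4 and 57.3 on the GFP arrays and 61.5 and 62.3 on the GFP-RhoGDI2 arrays; without NEFL and SNAP25 it was 48.14 and 47.60 against 48.09 and 47.95. The part of NEFL, SNAP25 and the keratins in the teneurin values was not tested.

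Of the 16 probe sets, 6 passed the filter: 1 each for TENM2, TENM4 and ADGRL2 and 3 for ADGRL1. The fit called 3 of these 6 higher in the GFP-RhoGDI2 line, the TENM2 probe set and 2 of ADGRL1, and 0 lower; all 6 mean differences were above 0. Across the array, limma called 4.63% of the 27307 tested probe sets higher and 3.01% lower. Without the filter, 2 of the 16 were called higher and 0 lower, the TENM2 probe set and 1 of TENM3, against 1.78% and 0.861% of all 54613. The values of the 2 lines did not overlap for 10 of the 16, 7 of them higher in GFP-RhoGDI2 cells and 3 lower; of all probe sets, 20.0% were higher without overlap and 23.9% lower. The choice of the set used this contrast, so nothing is read from these counts. The median difference was 0.10 over the 16 probe sets and -0.02 over all probe sets.

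**Figure D1:**
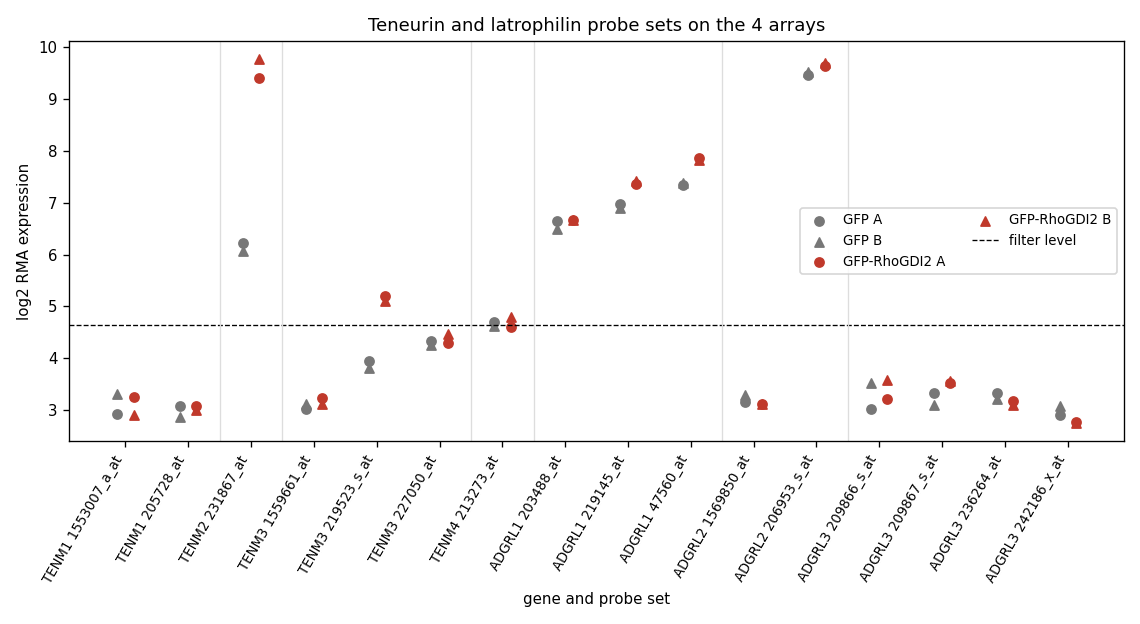
Log2 RMA expression (vertical axis) of the 16 teneurin and latrophilin probe sets (horizontal axis) on each array; grey marks are GFP and red marks GFP-RhoGDI2, circles preparation A and triangles preparation B, and the dashed line is the filter level of 4.637. The lines are far apart for TENM2, apart for 1 of 3 TENM3 probe sets, and close together for most others.

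TENM2 encodes the teneurin known as a high-affinity ligand of latrophilin-1. Its single probe set, 231867_at, read 6.22 (A) and 6.08 (B) in GFP cells and 9.42 (A) and 9.78 (B) in GFP-RhoGDI2 cells. Both GFP-RhoGDI2 values lay above both GFP values, and both GFP values lay above the filter level. The means were 6.15 ± 0.10 and 9.60 ± 0.26 (SD, n = 2), a log2 difference of 3.45 (SE 0.14) or 10.95-fold. Of the tested genes, 11 had a larger rise. The difference was 3.20 in preparation A and 3.70 in preparation B, and the lowest GFP-RhoGDI2 value exceeded the highest GFP value by 3.20. Leaving out any 1 array, without the preparation block, moved it between 3.27 and 3.63. With 1 probe set on this array, TENM2 had no second measurement of the same transcript.

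TENM3, a teneurin known for matching connections in the visual system and the hippocampus, had 3 probe sets that disagreed. Probe set 219523_s_at read 3.95 and 3.81 in GFP cells (A, B) and 5.19 and 5.11 in GFP-RhoGDI2 cells. The lines did not overlap there, with differences of 1.25 in preparation A and 1.30 in preparation B. Its mean of 4.51 lay just under the filter, so it was not among the tested probe sets; in the fit without the filter its difference was 1.27 (SE 0.11), or 2.42-fold. The GFP values, 3.88 ± 0.10 (SD, n = 2), fall within the range of the genes restricted to other organs with no detection call to set them apart from background, which leaves the fold uncertain. Probe set 227050_at read 4.33 and 4.24 in GFP and 4.29 and 4.46 in GFP-RhoGDI2 cells, and its lines overlapped (difference 0.09, SE 0.12 without the filter). Probe set 1559661_at stayed between 3.01 and 3.23 on all 4 arrays, also with overlap. The difference of 219523_s_at exceeded that of 227050_at by 1.29 in preparation A and 1.09 in preparation B. Which exons each probe set reads was not analysed here; the ending _s_at marks probe sets that can match several transcripts.

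The annotated starts of TENM2 and TENM3 are shown because these were the teneurins with a probe set that differed by more than 1 on the log2 scale. RefSeq (GRCh38.p14) gives 2 start sites for each, and the 250 bases before each start follow, 5′ to 3′ on the plus strand, with every CpG in capitals. The TENM2 windows are chr5:167072992-167073241 and chr5:167754679-167754928, and the TENM3 windows chr4:182143713-182143962 and chr4:182448766-182449015.
TENM2 outer start: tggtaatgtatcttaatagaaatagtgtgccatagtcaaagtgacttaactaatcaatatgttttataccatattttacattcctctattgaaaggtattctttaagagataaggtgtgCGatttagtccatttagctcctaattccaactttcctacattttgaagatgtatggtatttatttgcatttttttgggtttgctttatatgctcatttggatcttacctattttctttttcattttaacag
TENM2 inner start: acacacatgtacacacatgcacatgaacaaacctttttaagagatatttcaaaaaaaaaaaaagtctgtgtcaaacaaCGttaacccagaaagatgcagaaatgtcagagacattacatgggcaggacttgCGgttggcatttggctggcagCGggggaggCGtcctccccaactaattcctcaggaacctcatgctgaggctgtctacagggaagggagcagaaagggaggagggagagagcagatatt
TENM3 outer start: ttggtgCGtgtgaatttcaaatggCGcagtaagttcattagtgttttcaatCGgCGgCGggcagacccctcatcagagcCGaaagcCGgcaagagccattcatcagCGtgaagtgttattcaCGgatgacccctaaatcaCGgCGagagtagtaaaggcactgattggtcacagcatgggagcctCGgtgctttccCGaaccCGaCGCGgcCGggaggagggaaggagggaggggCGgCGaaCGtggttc
TENM3 inner start: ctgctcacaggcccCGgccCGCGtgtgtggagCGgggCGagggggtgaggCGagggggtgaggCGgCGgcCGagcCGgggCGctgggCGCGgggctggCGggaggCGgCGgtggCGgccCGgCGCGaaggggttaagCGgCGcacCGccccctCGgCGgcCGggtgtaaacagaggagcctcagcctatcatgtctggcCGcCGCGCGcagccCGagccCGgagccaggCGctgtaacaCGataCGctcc

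The TENM2 windows held few CpG dinucleotides and the TENM3 windows many. The TENM2 windows had 1 and 4 CpG and 29.2% and 46.4% G + C; the TENM3 windows had 20 and 35 CpG and 56.8% and 77.2% G + C. The medians over all 35116 windows in the table were 11 CpG and 58.0%. Windows were in the table for TENM1, TENM2, TENM3, TENM4, ADGRL2 and ADGRL3, 17 in all. The TATA box letters TATAAA, searched like all motifs on both strands, were in the outer TENM2 window and 10.7% of all windows. The GC box letters GGGCGG, which contain a CpG, were in both TENM3 windows, in neither TENM2 window and in 42.6% of all windows. The CCAAT box was in the outer TENM3 window and 32.0% of all windows. The AP-1 letters TGANTCA and the E-box CACGTG were in none of the 17, against 6.57% and 6.34% of all windows. These matches describe the letters of the windows; which start these cells used was not measured.

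**Figure D2:**
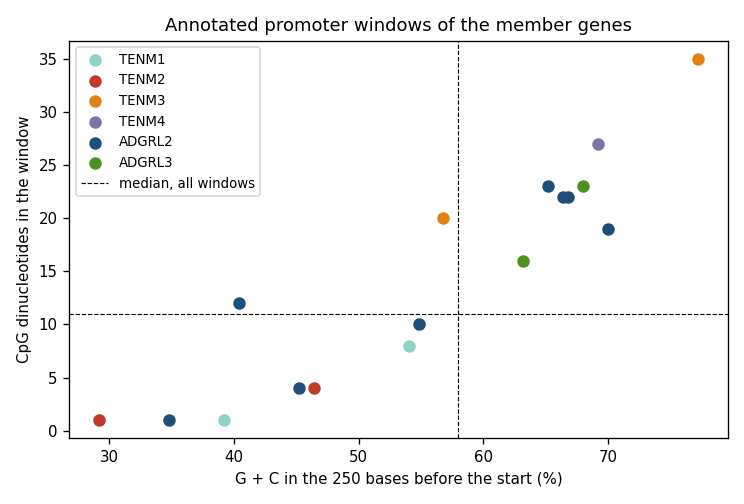
CpG count (vertical axis) against the percentage of G + C (horizontal axis) in the 250 bases before each annotated start, 1 point per window, coloured by gene; dashed lines are the medians of all windows, 11 CpG and 58.0%. The TENM2 windows (1 and 4 CpG) lie below both medians, and the TENM3 windows (20 and 35 CpG) lie above the median CpG count.

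TENM4, a teneurin with roles in myelination and in early embryonic development, read 4.69 and 4.62 in GFP cells and 4.61 and 4.78 in GFP-RhoGDI2 cells. The lines overlapped, and the values lay close to the filter level. The difference was -0.09 in preparation A and 0.16 in preparation B, 0.04 on average (SE 0.11), and it turned to -0.05 without the GFP-RhoGDI2 B array and the block. TENM1, an X-linked teneurin whose cytoplasmic part can reach the nucleus, had 2 probe sets that read between 2.86 and 3.30 on all arrays, low on this scale. Both overlapped between the lines, with mean differences of -0.03 and 0.06; the first was 0.34 in preparation A and -0.41 in preparation B.

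**Figure D3:**
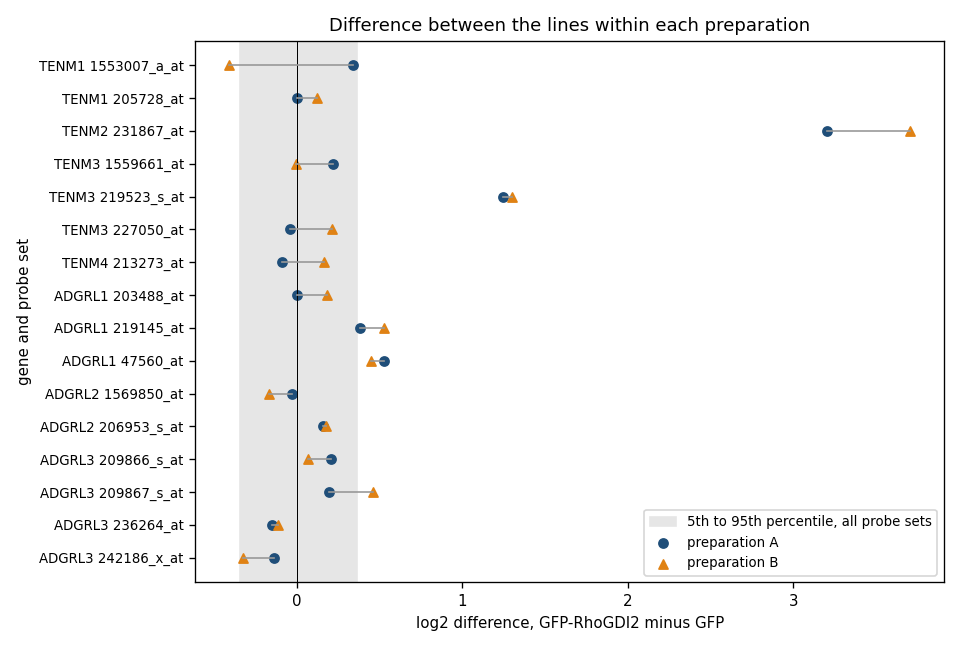
Log2 difference of GFP-RhoGDI2 minus GFP (horizontal axis) for each probe set (vertical axis). Circles are preparation A and triangles preparation B, joined by a line. The grey band, from -0.34 to 0.36, runs between the 0.05 and 0.95 quantiles of the difference averaged over both preparations, across all probe sets. Each point is the difference in 1 preparation, for which no band was computed. Over tested genes the 0.95 quantile of the averaged difference was 0.47. TENM2 (3.20 and 3.70), TENM3 219523_s_at (1.25 and 1.30) and 2 ADGRL1 probe sets lie beyond the band in both preparations. ADGRL1 219145_at does so narrowly in preparation A (0.38).

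ADGRL1 encodes latrophilin-1, first known as a receptor of the spider toxin alpha-latrotoxin. Its probe set 47560_at read 7.34 and 7.38 in GFP cells (A, B) and 7.86 and 7.83 in GFP-RhoGDI2 cells. Probe set 219145_at read 6.98 and 6.90 in GFP and 7.36 and 7.42 in GFP-RhoGDI2 cells. In both, the GFP-RhoGDI2 values were higher without overlap, with differences of 0.48 (SE 0.09) and 0.45 (SE 0.10), or 1.40-fold and 1.37-fold. A difference at least as high as that of 219145_at was found for 5.42% of the tested probe sets. The third, 203488_at, read 6.65 and 6.49 in GFP and 6.66 and 6.67 in GFP-RhoGDI2 cells, where the difference was 0.0035 in preparation A and 0.18 in preparation B (mean 0.09, SE 0.10). Probe set 47560_at exceeded 203488_at in its difference by 0.52 in preparation A and 0.26 in preparation B. Both calls were lost when any 1 array was left out without the block, although the differences stayed at 0.46 to 0.51 for 47560_at and 0.41 to 0.50 for 219145_at. Both were also lost with no filter on low values, and that of 219145_at without the block and after quantile normalization.

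ADGRL2 encodes latrophilin-2, a widely expressed member of the family. Its probe set 206953_s_at read 9.48 and 9.53 in GFP cells and 9.63 and 9.70 in GFP-RhoGDI2 cells. The lines did not overlap, but the difference of 0.16 (SE 0.09) was not called. Of the tested probe sets, 21.7% had a difference at least as high. Its other probe set, 1569850_at, read between 3.12 and 3.29, with a difference of -0.10, so only the first gave a level above the filter.

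ADGRL3 encodes latrophilin-3, which binds teneurins and FLRT3 at synapses. Its 4 probe sets read between 2.74 and 3.58 on all arrays and all lay below the filter. They did not move together: 2 had positive mean differences and 2 negative, from -0.23 for 242186_x_at to 0.33 for 209867_s_at. No call was made for any of them in the fit without the filter, where their SEs were 0.11 to 0.12.

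The 2 preparations were also compared, which the choice of the genes did not use. Of the 6 tested probe sets, limma called 0 between preparations B and A, with 0 at an unadjusted p under 0.05 and a lowest unadjusted p of 0.461. Averaged over the lines, B minus A ran from -0.08 to 0.11. Of all tested probe sets 0% were called, and 3102 of 27307 had an unadjusted p under 0.05. The difference between the lines changed from A to B by a median absolute amount of 0.16 both for the 6 tested and for the 10 untested probe sets, against 0.17 over all probe sets.

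Genes next to these 7 along the chromosomes were also listed. TENM2 was chosen for its large difference, and of the tested genes 11 had a larger rise. Smaller differences beside it follow from that choice, and nothing is read from them. For each gene the nearest 2 measured genes on each side were taken, in GRCh38.p14 order, 28 in all. Of these, 10 passed the filter, and limma called 0 higher and 0 lower, against 4.83% and 3.35% of all 12123 tested genes. An unadjusted p under 0.05 was found for 4. The share of all tested genes at that level was not counted, so nothing is read from the 4. Among them ADGRE5, beside ADGRL1, is also counted with the other adhesion receptor genes below. Differences ran from -0.41 for STAG2 to 0.35 for WWC1. Beside TENM2 lie MAT2B, a subunit of methionine adenosyltransferase (difference -0.08), the uncharacterised LOC102546299 (-0.17), WWC1, which encodes the Hippo pathway protein KIBRA (0.35, adjusted p = 0.0792), and the arginyl-tRNA synthetase gene RARS1 (-0.29, adjusted p = 0.115). The antisense gene TENM3-AS1, which overlaps TENM3, read 5.13 and 5.49 in GFP and 5.27 and 5.16 in GFP-RhoGDI2 cells (-0.10, adjusted p = 0.701). Beside TENM3, DCTD, encoding deoxycytidylate deaminase, differed by -0.21 (adjusted p = 0.215).

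**Figure D4:**
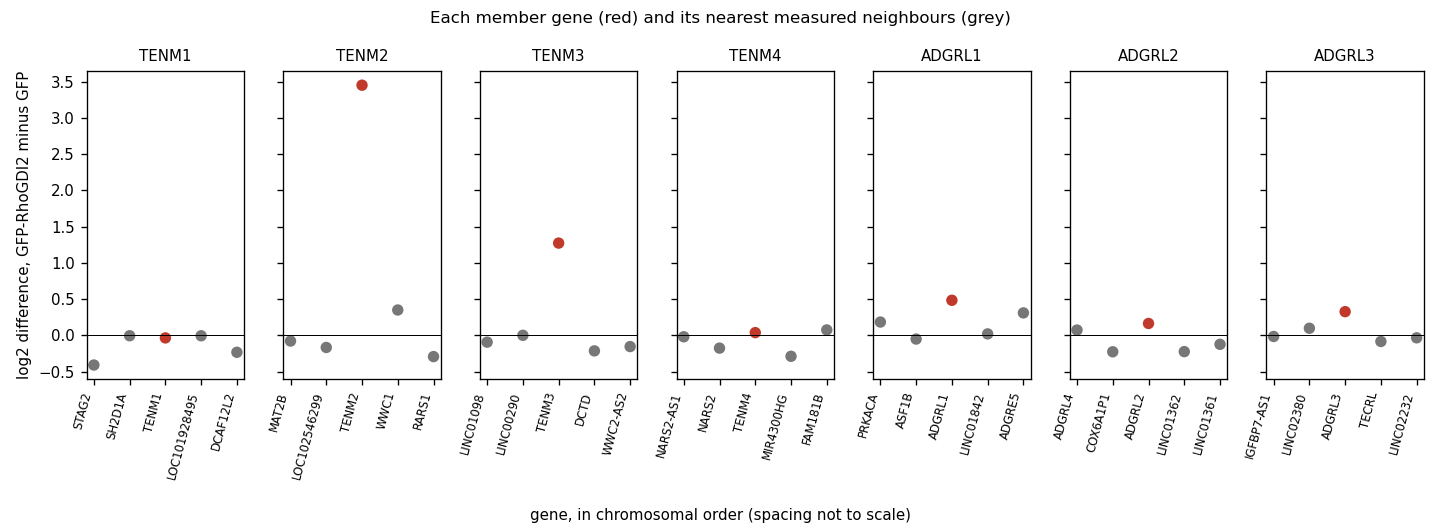
Log2 difference of GFP-RhoGDI2 minus GFP (vertical axis) for each of the 7 genes in red, by the probe set with its highest mean, and for the nearest 2 measured genes on each side in grey, in chromosomal order and not to scale. TENM2, chosen for its large difference, stands at 3.45, and the 28 neighbours lie between -0.41 and 0.35. TENM3 stands at 1.27 by 219523_s_at, which is below the filter and has the highest mean only through the GFP-RhoGDI2 line. In GFP cells 227050_at read higher (4.29 against 3.88). The other TENM3 probe sets differ by 0.09 (227050_at) and 0.11 (1559661_at).

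By the shape of their values over the 4 arrays, the 5 tested genes nearest to TENM2 were DAPK1, CXCL1, ABLIM1, IL1RAPL1 and STC1. The measure was the root mean square distance between values centred on each gene's own mean, 0.20 for DAPK1 and 0.24 for STC1. DAPK1, a death-associated protein kinase gene, read 4.73 and 4.76 in GFP and 7.55 and 8.26 in GFP-RhoGDI2 cells. IL1RAPL1, encoding a synaptic protein of the interleukin-1 receptor family, read 4.23 and 4.05 in GFP and 6.85 and 7.58 in GFP-RhoGDI2 cells. The GFP-RhoGDI2 B value was the highest in both, as in TENM2, ABLIM1 and STC1 but not in CXCL1. Since the genes were picked for likeness to TENM2, nothing is read from this order. The chemokine gene CXCL1, the actin-binding LIM protein gene ABLIM1 and the stanniocalcin gene STC1 differed by 3.58, 3.89 and 3.72. ABLIM1 read 4.15 and 4.12 in GFP cells and 7.84 and 8.21 in GFP-RhoGDI2 cells. Both GFP values of IL1RAPL1 and of ABLIM1 lay below the filter level of 4.637. These genes thus passed through the GFP-RhoGDI2 line alone, and their folds are uncertain. Likeness over 4 arrays mainly reflects a similar size of difference. TENM2 was chosen by that difference, so nothing is read from the likeness.

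Of 26 genes whose products bind latrophilins or teneurins or carry their signals, 23 were measured and 13 passed the filter. The limma test called 0 higher and 0 lower, while of all 12123 tested genes 4.83% were called higher and 3.35% lower. An unadjusted p under 0.05 was found for 6 of the 13. The share of all tested genes at that level was not counted, so nothing is read from the 6. The median difference was 0.15, against -0.01 over all tested genes, and 12 of the 13 were above 0. Most of the 13 were G protein alpha subunit genes, and the others were FLRT2, UNC5B, SHANK3 and MBD1. UNC5B counted as above 0 at 0.0008. The share of all tested genes above 0 was not counted, so nothing is read from the 12. The scaffold gene SHANK3 differed by 0.49 (SE 0.16, adjusted p = 0.117), with 0.19 in preparation A and 0.79 in preparation B, while its other probe set differed by -0.11. Among the G protein alpha subunit genes, GNAI1 differed by 0.47 (adjusted p = 0.0732), GNAQ by 0.28 (0.131) and GNA12 by 0.27 (0.180). Further probe sets of GNAI1 and GNAQ were called, at 0.56 (adjusted p = 0.0353) and 0.49 (0.0362); these were chosen after their values were seen, and the GNAI1 call was lost without the block (0.0988). Leaving out the GFP A array and the block gave a call for SHANK3 (0.77, adjusted p = 0.0320), and leaving out GFP B and the block gave one for GNAI1 (0.71, 0.0437).

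The FLRT ligands of latrophilins gave no call; they are named here after their values were seen. FLRT2, the member above the filter, read 8.23 and 8.46 in GFP and 8.55 and 8.65 in GFP-RhoGDI2 cells (difference 0.25, adjusted p = 0.167). Its other probe sets differed by -0.04 and -0.17, so they disagreed in sign. FLRT1 and FLRT3 were below the filter. With no filter, the one gene of this list that was called was the scaffold gene SHANK1, at -0.56 (adjusted p = 0.0482), with a mean of 4.11.

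Of 29 other adhesion G protein-coupled receptor genes, 26 were measured and 12 passed the filter. Of the 12, 1 was called higher and 0 lower, against 4.83% and 3.35% of all 12123 tested genes. ADGRG6, a receptor needed for myelination by Schwann cells, read 4.57 ± 0.03 in GFP and 6.25 ± 0.13 (SD, n = 2) in GFP-RhoGDI2 cells, a log2 difference of 1.68 (SE 0.10). Its arrays read 4.55 and 4.59 in GFP and 6.16 and 6.35 in GFP-RhoGDI2 cells, and both GFP values lay below the filter level. It thus passed the filter only through the line where it is high, so its call is a description and its fold is uncertain; the fit of all probe sets without the filter called it too. Its other probe sets, at means of 3.05 and 3.64, differed by 0.01 and -0.15. ADGRA3 differed by -0.39 (adjusted p = 0.0856), ADGRE5 by 0.31 (0.104) and ADGRG1 by 0.18 (0.316). The median difference of the 12 genes was -0.10, with 4 above 0 and 8 below. ADGRL4, named for its likeness to the latrophilins, read between 2.71 and 2.90 and was not tested.

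**Figure D5:**
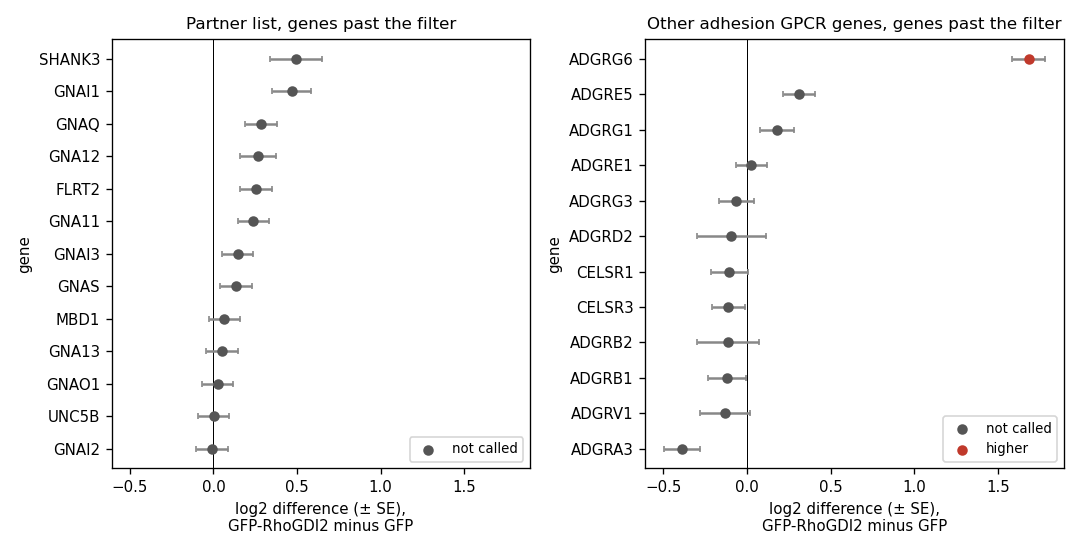
Log2 difference of GFP-RhoGDI2 minus GFP with its SE (horizontal axis) for the genes past the filter (vertical axis), the 13 partner genes on the left and the 12 other adhesion receptor genes on the right; red marks a call. ADGRG6 at 1.68 stands apart, and the other genes lie between -0.39 and 0.49.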

How the data were processed

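The deposited values are log2 expression per probe set of the Affymetrix HG-U133 Plus 2.0 array, computed by the authors; RMA is named in the submitters' processing notes, without software or version. They were used as deposited. Arrays carry no read depth, and their number limits the precision. Of 54675 probe sets, 62 controls were left out.

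Genes were named from the platform annotation, from the 41091 probe sets with 1 gene. Tested were the 27307 with a mean at or above the median, 4.637. Testing used lmFit and eBayes of limma 3.58.1 (R 4.3.3), with preparation as a block, Benjamini-Hochberg adjustment over all tested probe sets and a call at adjusted p under 0.05. In the gene lists a gene stands as its probe set with the highest mean. The fit had 1 residual degree of freedom, to which moderation added 4.71. Checked on simulated data without a preparation effect, it returned the differences put in, and its share of false calls lay above the nominal rate. Those differences were larger than the ones called for ADGRL1, GNAI1 and GNAQ, so the check does not cover calls of that size. The pairing comes from the series' design text; the A minus B differences of the lines correlated at r = 0.264 across tested probe sets, which are not independent.

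The genes and lists were chosen with earlier results of these data known. Named are all 7 genes, called list genes, the 4 tested genes of each list with the largest differences, the nearest 2 measured genes on each side of each of the 7 and the 5 genes most like TENM2 over the arrays. Alternatives were leaving out the block or single arrays, no filter or a higher one, a prior variance trend, quantile normalization, a floor, probe set means, no shared-transcript probe sets and a looser threshold. Their use for the other adhesion receptor genes was added after seeing the data.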

Additional observations from a re-analysis of the deposited data

How the results depend on the processing

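The 6 tested differences of teneurin and latrophilin probe sets gave 58 values under the alternatives; no called difference changed sign, no call was gained, and 12 calls were lost, all of ADGRL1. The count of 3 called probe sets was 1, TENM2 alone, in each fit with 1 array left out. Those fits also left out the block, since with it 3 arrays leave no residual degrees of freedom, so both changes act together. Without the replicate block, 1284 of all probe sets were called in place of 2085. The count was 422 to 909 without the block and 1 array, 3435 above the upper quartile (1713 higher, 1722 lower) and 5721 with an intensity trend (2935 and 2786), against 1264 and 821 in the main analysis. Of the partner genes, 1 of 23 was called with no filter and 1 of 9 above the upper quartile. With the trend 6 of 13 were called and with probe set means 3 of 13, against 0 of 13 in the main analysis. The share of all genes called in these other settings was not counted, so nothing is read from the list counts. Of the other adhesion receptor genes, 1 of 12 was called in the main analysis, ADGRG6. Above the upper quartile 4 were tested and 2 called, ADGRA3 lower and ADGRE5 higher, while ADGRG6 lay below that filter. With the trend the 3 calls were ADGRG6 and ADGRE5 higher and ADGRA3 lower. With probe set means the 2 were ADGRG6 and ADGRE5, both higher. Of the other genes named as called, the SNAP25 call and that of the further GNAI1 probe set were lost without the block, which was tried after seeing the data; those of ADGRG6, NEFL, KRT8, KRT18, ARHGDIB and the further GNAQ probe set were kept.

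The limit on all values is 2 arrays per line and, without detection calls, levels near the low end that are not shown to be above background.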
